A study of Mus musculus with 6 samples.

Results

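The markers described here are 10 genes that the kidney epithelium switches on, or up, when the tubule is injured or loses its differentiated state: Havcr1, Lcn2, Spp1, Clu, Krt8, Krt18, Krt19, Vim, Sox9 and Cd44. They were taken by symbol from a table of 46095 rows, in which each had 1 row, and 9 of the 10 had enough counts to be tested among 15367 genes. The table holds RNA sequencing counts from 6 mouse kidney samples of C57BL/6 background. A group of 3 libraries is labelled as treated with DHT (dihydrotestosterone, a potent androgen) and the other group of 3 as control. The strain label names the model of polycystic ovary syndrome (PCOS) for controls as well, and only the treatment label separates the groups. The libraries are called D1 to D3 (DHT replicates 1 to 3) and C1 to C3 (control replicates 1 to 3). The sources used here give no dose, duration, age or sex. The series title places the study in kidney injury linked to PCOS.

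In a healthy proximal tubule most of these genes are quiet. After injury, surviving tubular cells flatten, lose transporters and re-express genes of the embryonic kidney and of simple epithelia, among them the transcription factor gene Sox9, the filament gene Vim and the keratin genes. Such cells also secrete or shed proteins that are read in urine as signs of injury, of which KIM-1 (from Havcr1) and NGAL (from Lcn2) are the best known. Several of the 10 genes also have a constant source in an uninjured kidney: Spp1, Clu, Krt8 and Krt18 are made by distal nephron epithelium, Krt19 by collecting duct and urothelium, and Vim and Cd44 by vessels, interstitial cells and leukocytes. The kidney samples are bulk tissue, in which fewer cells of a type and less RNA per cell cannot be told apart.

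None of the 9 tested markers passed in either direction, and Krt19 had too few counts for the test. In edgeR's quasi-likelihood test with Benjamini-Hochberg adjustment over all genes, 0 of the 9 tested were higher and 0 were lower at an adjusted p of 0.05, against 2.84% of all tested genes called (1.38% higher and 1.46% lower). With DESeq2 1 of the 9 was called, Krt8, against 9.61% of all genes with an adjusted p from that tool (5.09% higher and 4.51% lower), a share near the background. At an unadjusted p below 0.05 there were 2, Krt8 and Spp1, against 23.9% of all tested genes. The fold changes pointed both ways, 4 upward and 5 downward, with a median log2 fold change of -0.05 over the 9 and 0.003 over all genes. The groups did not overlap for 1 of the 9, Krt8, which was higher in each DHT library, against 29.8% of all tested genes (14.8% higher and 15.0% lower). By library, Krt8 stood higher with DHT, Spp1 and Clu had lower means with DHT but overlapping groups, and Lcn2, Krt19, Vim and Cd44 each stood in a single library at 1.69 to 15 times the next highest.

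**Figure D1:**
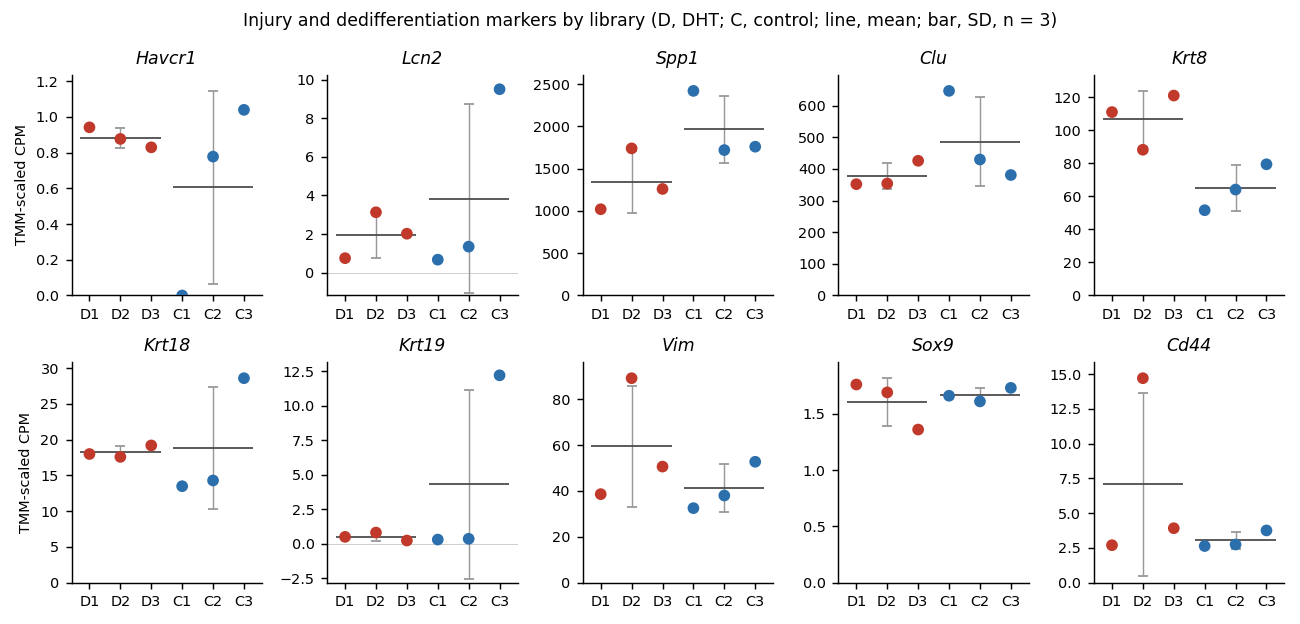
Expression of the 10 markers in each library, in counts per 1e6 after TMM scaling (CPM, linear axes), with DHT libraries D1 to D3 in red and control libraries C1 to C3 in blue. Lines are group means and bars SD (n = 3). Only the Krt8 groups are apart, at 88.2 to 121 CPM in DHT and 51.6 to 79.4 CPM in control.

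Library totals ran from 15.05 to 19.33 (1e6 counts), and mitochondrial genes took 11.4% to 14.9% of counts. Whether each replicate is its own animal is not labelled, and every p-value therefore covers the spread among these 6 libraries, which may be technical. A pair of libraries stood apart. Among the 14251 genes averaging 1 CPM or more, 58 were at least 3-fold above every other library in control replicate 3 and 50 in DHT replicate 2, against 3 to 7 in each of the other 4 libraries. In control replicate 3 these came with urothelial genes and in DHT replicate 2 with leukocyte genes, whose values stand beside each marker they touch. Other cell type lists also summed highest in these libraries. They were loop of Henle, principal cell and mesenchymal genes in control replicate 3, and endothelial, red blood cell and podocyte genes in DHT replicate 2. Both libraries are kept in the main values, and the values without them are given where they change a marker.

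The promoters of the genes on which the results turn are shown first, since Krt8 and Krt18 lie side by side in the genome and only the first had groups that did not overlap, and since Lcn2 and Cd44 are the tested markers that single libraries moved most. RefSeq promoter sequences (GRCm38.p6, from 250 bases before to 50 after the start) were matched for 7 of the 10 markers. Capitals mark matches, on either strand, to 4 short motifs: AP-1 (TGANTCA), the androgen receptor half-site (AGAACA), the TATA box (TATAAA) and SP1 (GGGCGG). The windows are chr15:102004293-102004592 (minus strand) for Krt8, chr15:102027966-102028265 (plus strand) for Krt18, chr2:32387690-32387989 (minus strand) for Lcn2 and chr2:102901616-102901915 (minus strand) for Cd44.
Krt8: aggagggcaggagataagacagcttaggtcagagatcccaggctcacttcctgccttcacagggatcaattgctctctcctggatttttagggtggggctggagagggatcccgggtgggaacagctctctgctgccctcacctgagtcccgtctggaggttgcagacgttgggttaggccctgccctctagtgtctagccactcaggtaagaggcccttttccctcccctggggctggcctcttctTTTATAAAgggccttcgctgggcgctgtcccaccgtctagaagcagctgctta
Krt18: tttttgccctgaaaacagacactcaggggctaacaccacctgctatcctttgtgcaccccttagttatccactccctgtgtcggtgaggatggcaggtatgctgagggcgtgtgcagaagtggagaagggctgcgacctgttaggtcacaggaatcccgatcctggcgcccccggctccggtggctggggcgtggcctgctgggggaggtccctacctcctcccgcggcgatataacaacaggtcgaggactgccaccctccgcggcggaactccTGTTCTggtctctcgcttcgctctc
Lcn2: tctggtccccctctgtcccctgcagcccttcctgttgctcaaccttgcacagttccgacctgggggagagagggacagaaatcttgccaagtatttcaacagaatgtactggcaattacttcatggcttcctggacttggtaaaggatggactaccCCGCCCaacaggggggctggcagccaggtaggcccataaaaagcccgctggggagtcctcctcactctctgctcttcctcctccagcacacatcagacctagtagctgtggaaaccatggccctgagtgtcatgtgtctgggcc
Cd44: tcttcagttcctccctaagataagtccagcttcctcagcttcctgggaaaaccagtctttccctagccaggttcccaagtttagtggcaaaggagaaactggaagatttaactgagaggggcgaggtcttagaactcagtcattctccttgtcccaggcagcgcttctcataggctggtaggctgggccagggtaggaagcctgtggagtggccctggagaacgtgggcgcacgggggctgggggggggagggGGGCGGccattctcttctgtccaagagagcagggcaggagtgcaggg

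The Krt8 window held 2 overlapping matches to the TATA box, 1 on each strand at the start site, a motif found in 13.6% of all 32851 promoters of the table. Krt18 held 1 androgen receptor half-site, 25 bases after the start, found in 19.0% of promoters, and the Krt8 window held 0. Lcn2 and Cd44 each held 1 SP1 match (35.7% of promoters). The AP-1 motif, found in 7.81% of promoters, was in none of the 4 windows. These matches describe letters in a window, not sites of binding.

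Levels per length of exon, which allow genes to be set against each other, spread widely among the markers. Group means in CPM per kb of exon put Spp1 first (812 in DHT and 1190 in control), then Clu (110 and 141) and Krt8 (54.6 and 33.2). Krt18 (12.7 and 13.1) and Vim (12.5 and 8.67) shared a middle level. Lcn2, Cd44, Havcr1, Sox9 and Krt19 were low, at 0.262 to 2.32 CPM per kb, the upper value being Krt19 in control, which rests on 1 library. The genes most tied to injury, Havcr1, Lcn2 and Sox9, were thus measured with few counts in both groups, and those made by uninjured distal epithelium with many.

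The keratins of simple epithelia form filaments from 1 type II chain, made from Krt8, and 1 type I chain, made from Krt18 or Krt19. Krt8 (chromosome 15, 101996698 to 102004482, GRCm38) was at 111, 88.2 and 121 CPM in D1 to D3 and at 51.6, 64.1 and 79.4 CPM in C1 to C3. Each DHT library was above each control library, with the lowest DHT value close to the highest control value. The means were 107 ± 16.9 and 65.0 ± 13.9 CPM (SD, n = 3 each), a log2 fold change of 0.72 ± 0.18 (SE, edgeR adjusted p = 0.0668). Across 19 alternative fits the log2 fold change of Krt8 stayed between 0.57 and 1. It passed with DESeq2 (adjusted p = 0.00853), with no low-count filter (0.0264), with the GC correction (0.0394), without DHT replicate 2 (0.0325) and without DHT replicate 2 and control replicate 3 together (0.00856). It did not pass without any of the other 5 libraries (adjusted p from 0.075 to 0.207) or with the length correction (0.0907). Nor did it pass with total counts (0.108), a replicate block (0.0954) or limma-voom (0.0742). No robust step gave an adjusted p of 0.0706, a 1 CPM filter 0.0676 and median-ratio scaling 0.0652. In all, 13 of the 19 fits did not call it. Genes called higher numbered 813 with DESeq2, 418 with no low-count filter and 745 without DHT replicate 2, against 212 in the main fit. A pseudogene, Krt8-ps, is 98.6% identical over 48.1% of the Krt8 transcript and held 26 counts in all against 5221 for Krt8 in DHT and 3678 in control, and 101 bases of Krt8 exon overlap the antisense transcript Gm36026, which held 7.

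Krt18 (chromosome 15, 102028180 to 102032027), whose start lies 23698 bases from that of Krt8, had overlapping groups. It was at 18.0, 17.6 and 19.2 CPM in DHT and at 13.5, 14.3 and 28.6 CPM in C1 to C3. The DHT libraries lay close together, above 2 of the controls and below control replicate 3. Its log2 fold change was -0.05 ± 0.28 (edgeR adjusted p = 0.933), and without control replicate 3 it turned to 0.39 (adjusted p = 0.198).

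Krt19 (chromosome 11, 100140810 to 100148665) stood high in 1 library. It had 8, 13 and 4 counts in D1 to D3, 5 and 7 in control replicates 1 and 2, and 247 in control replicate 3, or 12.2 CPM there against 0.237 to 0.814 CPM in the others. That is 15 times the next highest library. The gene did not pass the filter on low counts, which asks for counts in a group's worth of libraries. With no filter its log2 fold change was -3.06 ± 1.85 (adjusted p = 0.514). Outside control replicate 3 the groups overlapped.

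Urothelial markers moved with Krt19. Of the 10 genes in the list, 9 were highest in control replicate 3, and their summed level was 56.4 CPM there, against 1.84 and 3.84 CPM in C1 and C2 and 1.19 to 2.51 CPM in DHT. Psca, a surface antigen of urothelium, was at 11.9 CPM in control replicate 3 and at 0.0615 to 0.208 CPM elsewhere, and the basal keratin gene Krt15 at 7.27 CPM against 0 to 0.208 CPM. Krt14 was at 0 in every library but control replicate 3 (1.98 CPM), and Krt15 was at 0 in each DHT library and in control replicate 1. Krt5 was at 4.70 CPM in control replicate 3 and at 0 to 0.119 CPM elsewhere. The uroplakin gene Upk1a was at 8.81 CPM in control replicate 3 and at 0.475 to 1.45 CPM in the rest. Principal cell markers of the collecting duct also summed highest there, at 1180 CPM against 584 to 766 CPM. So did loop of Henle markers, at 14900 CPM against 6430 to 9480 CPM. The part of these cells in the Krt19, Krt18 and Lcn2 values of control replicate 3 was not tested.

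The ratio of Krt8 to Krt18, in counts per exon length, sets these 2 keratins, without Krt7 or Krt19, in 1 number per library. It was 4.53, 3.68 and 4.65 in D1 to D3 and 2.81, 3.30 and 2.03 in C1 to C3. The groups did not overlap, with or without control replicate 3. The log2 ratio differed by 0.68 between the group means (SD 0.18 in DHT and 0.36 in control). A two-sided exact permutation test gave p = 0.1, the smallest that 3 against 3 libraries allow. Groups that do not overlap always give this value, so the test adds nothing to the separation itself. The ratio was chosen after the values were seen.

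**Figure D2:**
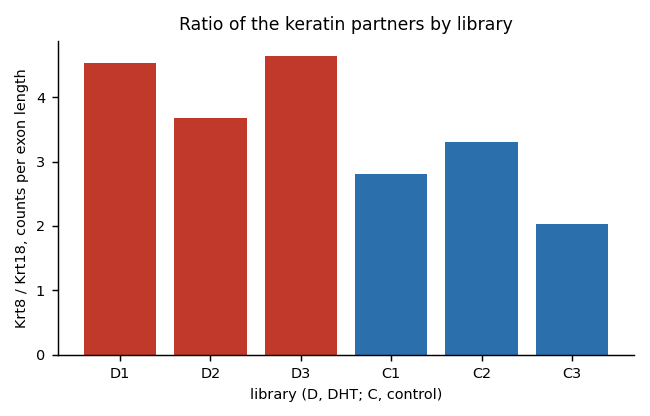
Ratio of Krt8 to Krt18 counts per exon length in each library (bars from 0; D, DHT in red; C, control in blue). The 3 DHT libraries sit between 3.68 and 4.65, above the controls at 2.03 to 3.30.

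Among the secreted or shed markers, Spp1 was by far the most abundant per length of exon, at 812 CPM per kb in DHT and 1190 CPM per kb in control. Spp1 (chromosome 5, 104435118 to 104441050) encodes osteopontin, a secreted phosphoprotein of the distal nephron that binds integrins and CD44 and rises in injured tubules. In the annotation, 309 bases of its exons are shared with Gm42793 on the same strand, so the 2 cannot be told apart there. Gm42793 has no row of its own among the deposited counts. Its level was 1020, 1740 and 1260 CPM in D1 to D3 and 2420, 1720 and 1760 CPM in C1 to C3. DHT replicates 1 and 3 were below all controls, and DHT replicate 2 lay among them. DHT over control, the log2 fold change was -0.55 ± 0.24 (edgeR adjusted p = 0.207). It was -0.80 without DHT replicate 2 (adjusted p = 0.0682) and -0.87 without both that library and control replicate 3 (adjusted p = 0.0457), and -0.38 without control replicate 1. The loop of Henle list, whose cells make osteopontin, summed to 7330, 6430 and 8220 CPM in DHT and 6780, 9480 and 14900 CPM in C1 to C3, with 7 of its 8 genes highest in control replicate 3. The distal tubule list summed to 6470, 4880 and 6200 CPM in DHT and 7540, 5540 and 4370 CPM in C1 to C3, with 5 of its 6 genes highest in control replicate 1, where Spp1 was also highest. The part of these cells in the Spp1 values was not tested.

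Clu (chromosome 14, 65968483 to 65981547) encodes clusterin, a secreted chaperone that binds misfolded proteins. It stood at 352, 354 and 426 CPM in D1 to D3 and at 647, 430 and 381 CPM in C1 to C3. Control replicate 1 was the highest, and the other 5 libraries shared 1 range. The distal tubule list, too, summed highest in that library, and its part in the Clu values was not tested. This gave a log2 fold change of -0.37 ± 0.21 (edgeR adjusted p = 0.327), and -0.11 without control replicate 1.

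Lcn2 (chromosome 2, 32384633 to 32388252) encodes the iron-carrying lipocalin NGAL, which injured distal tubules and neutrophils release. It had 12, 50 and 34 counts in D1 to D3 (0.754, 3.13 and 2.02 CPM) and 11, 26 and 192 in C1 to C3 (0.676, 1.35 and 9.50 CPM). Control replicate 3 stood at 3.03 times the next library, and the rest of the groups overlapped. Its log2 fold change was -0.97 ± 0.99 (edgeR adjusted p = 0.588) with all libraries and turned to 0.94 without control replicate 3 (adjusted p = 0.452), so its direction rests on that library. Neutrophil genes were low: the 8 of the list summed to 6.09 to 9.77 CPM in DHT and 2.82 to 4.12 CPM in control. Ly6g was at 0 in every library but DHT replicate 2 (0.0626 CPM). Elane and Mpo were at 0 in every library but DHT replicate 3 (0.178 and 0.949 CPM). Other genes of the list were higher in each DHT library than in any control. S100a9 was at 1.82 to 2.25 CPM in DHT and 0.0495 to 1.05 CPM in control (edgeR adjusted p = 0.1735). Cxcr2 was at 0.297 to 1.01 and 0.0989 to 0.259 CPM, and Retnlg at 0.297 to 0.44 CPM in DHT and 0 in control. S100a8 and Csf3r had overlapping groups. The neutrophil sum was lowest in control replicate 3, where Lcn2 was highest, but rests on genes with few counts. The part of neutrophils in the Lcn2 values was not tested.

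Havcr1 (chromosome 11, 46735080 to 46779578) encodes KIM-1, the phosphatidylserine receptor by which injured proximal cells take up dying neighbours. It was near the limit of detection, at 15, 14 and 14 counts in DHT and 0, 15 and 21 counts in C1 to C3. In CPM these were 0.942, 0.877 and 0.830 in DHT and 0, 0.778 and 1.04 in control; a count of 0 allows up to 0.184 CPM in control replicate 1, counting error only. Apart from that library the groups overlapped. DHT over control, the log2 fold change was 0.50 ± 0.81 (edgeR adjusted p = 0.740), and -0.05 without control replicate 1.

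Sox9 (chromosome 11, 112782224 to 112787760), the transcription factor gene that regenerating tubular cells switch on, was the steadiest of the 10. It had 28, 27 and 23 counts in DHT and 27, 31 and 35 in C1 to C3, or 1.76, 1.69 and 1.36 CPM and 1.66, 1.61 and 1.73 CPM. The highest library was 1.29 times the lowest. This gave a log2 fold change of -0.06 ± 0.32 (edgeR adjusted p = 0.927), and at this depth the SE leaves room for a moderate change either way.

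Vim (chromosome 2, 13573927 to 13582826) encodes vimentin, the filament of mesenchymal cells, endothelium and leukocytes that dedifferentiated tubular cells also make. It stood at 38.6, 89.1 and 50.6 CPM in D1 to D3 and at 32.5, 38.0 and 52.7 CPM in C1 to C3. DHT replicate 2 was highest, and the other 5 libraries overlapped. Its log2 fold change was 0.53 ± 0.32 (edgeR adjusted p = 0.357), falling to 0.11 without DHT replicate 2 (adjusted p = 0.786).

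Cd44 (chromosome 2, 102811141 to 102901665) encodes the cell surface receptor for hyaluronan and osteopontin, present on leukocytes and on injured or regenerating tubules. It was at 2.70, 14.7 and 3.92 CPM in D1 to D3 and at 2.64, 2.75 and 3.76 CPM in C1 to C3. DHT replicate 2 stood at 3.74 times the next library, while the other 5 lay in 1 narrow range. DHT over control, the log2 fold change was 1.21 ± 0.61 (edgeR adjusted p = 0.272), and 0.11 without DHT replicate 2 (adjusted p = 0.863).

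Leukocyte markers moved with Cd44 and Vim. Of 15 macrophage and monocyte genes, 14 were highest in DHT replicate 2, where the list summed to 472 CPM, against 132 and 279 CPM in the other DHT libraries and 135 to 270 CPM in control. The exception was Csf1r, a growth factor receptor, highest in control replicate 3. Lymphocyte genes summed to 62.1 CPM in DHT replicate 2 against 23.0 to 29.8 CPM elsewhere, with Ptprc, the pan-leukocyte CD45 gene, at 41.8 CPM against 13.1 to 16.7 CPM. Endothelial genes summed to 961 CPM there against 554 to 716 CPM, and 8 of 10 were highest in that library. Red blood cell genes were also highest in that library, 5 of 5, summing to 70.3 CPM against 2.89 to 37.5 CPM. Podocyte genes summed to 823 CPM there against 552 to 713 CPM, with 5 of 6 highest in that library. Mesenchymal genes did not follow: they summed to 386 CPM in DHT replicate 2 and to 491 CPM in control replicate 3, where 8 of 11 were highest. The part of all these cells in the Cd44 and Vim values was not tested.

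**Figure D3:**
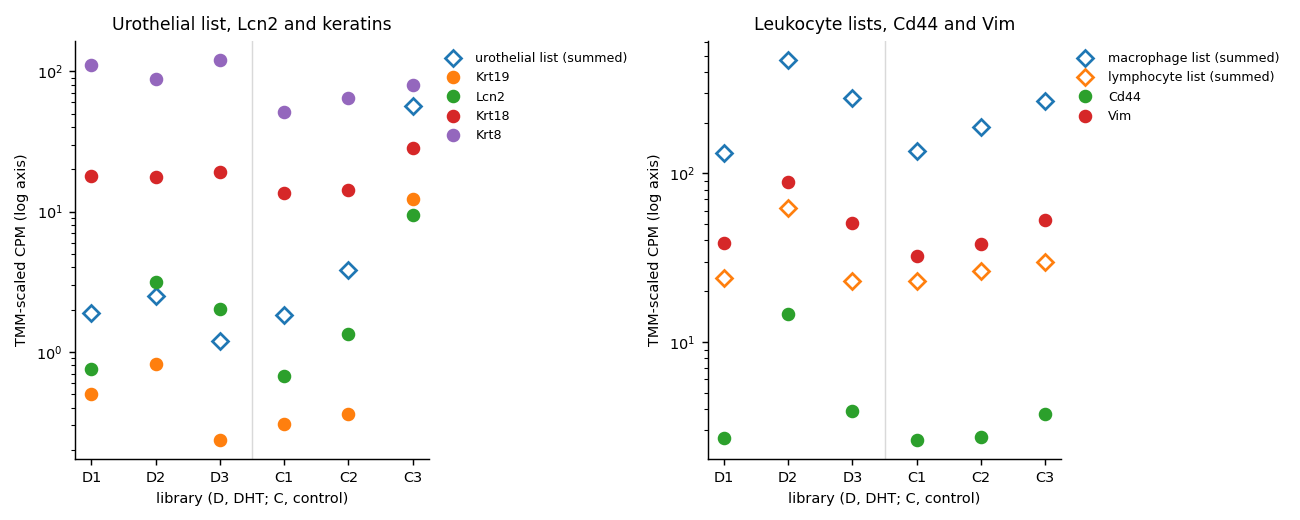
Marker levels beside the summed levels of cell type lists, by library, in TMM-scaled CPM on log axes (D, DHT; C, control; filled circles, single genes; open diamonds, lists). The urothelial list, Krt19 and Lcn2 are highest in control replicate 3 (56.4, 12.2 and 9.50 CPM). The macrophage list, Cd44 and Vim are highest in DHT replicate 2 (472, 14.7 and 89.1 CPM).

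Leaving out either of these libraries moved some markers and left others in place. Without DHT replicate 2 the log2 fold changes of Vim and Cd44 both came to 0.11, while those of Krt8 and Spp1 went to 0.83 and -0.80. Without control replicate 3 Lcn2 and Krt18 changed direction and Krt8 went to 0.88.

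**Figure D4:**
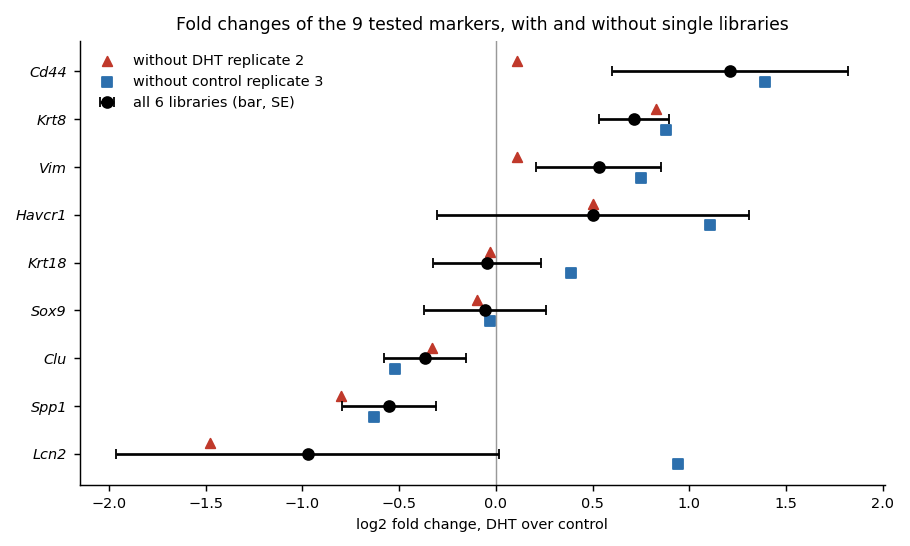
Log2 fold changes (DHT over control) of the 9 tested markers with all libraries (black, bar SE), without DHT replicate 2 (red triangles) and without control replicate 3 (blue squares). Lcn2 runs from -0.97 to 0.94 on leaving out control replicate 3, and Cd44 from 1.21 to 0.11 on leaving out DHT replicate 2.

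For each tested marker, the gene with the most similar profile over the 6 libraries was found by the smallest root mean square (RMS) difference of centred log2 CPM. For Cd44 it was Itga4, an integrin subunit of leukocytes (RMS 0.137 log2), at 20.5 CPM in DHT replicate 2 and 4.98 to 7.18 CPM elsewhere. For Krt18 it was Rab25, an epithelial trafficking gene (0.064), at 23.8 CPM in control replicate 3 and 11.4 to 15.3 CPM elsewhere. For Krt8 it was Timm13, a mitochondrial import chaperone gene (0.056), at 65.0 to 81.9 CPM in DHT and 35.9 to 58.3 CPM in control. The closest genes of the other markers were Adgra2 for Spp1 (0.089), Rnf183 for Clu (0.061), Prrg3 for Lcn2 (0.339), C1qtnf4 for Havcr1 (0.175), Tnfaip8l1 for Vim (0.084) and Nfx1 for Sox9 (0.024).

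A wider list of injury and repair genes held 53 in the table, of which 50 were tested, 1 was higher and 1 lower in DHT, against 1.38% and 1.46% of all tested genes, shares near the background. Itgb6, the integrin subunit that activates latent TGF-beta, fell from 92.5, 157 and 117 CPM in C1 to C3 to 36.9, 35.6 and 32.0 CPM in D1 to D3. All DHT libraries lay within a few CPM of each other and far below the lowest control (log2 fold change -1.81 ± 0.19, edgeR adjusted p = 0.0113). Plin2, the coat protein of lipid droplets, rose from 57.2 to 62.2 CPM in control to 102 to 113 CPM in DHT (log2 fold change 0.85 ± 0.11, edgeR adjusted p = 0.0142). Cdh6, a cadherin of the developing nephron, came next at 7.92 to 14.2 CPM in DHT and 17.6 to 36.4 CPM in control (adjusted p = 0.0552). Over the 50 genes the median log2 fold change was 0.07. Without DHT replicate 1 or DHT replicate 3 the list held 0 calls, without control replicate 2 it held 1 lower, without control replicate 1 it held 1 higher and 4 lower, and without DHT replicate 2 it held 2 higher and 3 lower. Over all genes, those higher and lower were 8 and 11 without D1, 0 and 0 without D3, and 2 and 5 without C2. They were 113 and 253 without C1, and 745 and 479 without D2. With the replicate block the list held 0 higher and 2 lower, so the Plin2 call was lost. With DESeq2 it held 4 higher and 4 lower, against 5.09% and 4.51% of all genes with an adjusted p from that tool.

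The groups did not overlap for 10 of these 50 genes, 6 higher and 4 lower, a share below the 29.8% of all tested genes. Those lower in DHT were Itgb6, Cdh6, Prom1 and Pax2. Prom1, the progenitor and scattered tubular cell marker CD133, was at 54.8, 144 and 77.2 CPM in DHT and 193 to 217 CPM in control (adjusted p = 0.0881). Pax2, a transcription factor gene of nephron development, was at 14.2 to 18.8 CPM in DHT and 22.1 to 51.9 CPM in control (adjusted p = 0.096). Those higher included Plin2, Ier3, Atf3, Il18 and Hmox1, of which the stress factor gene Atf3 was at 3.03 to 5.26 CPM in DHT and 1.25 to 2.46 CPM in control (adjusted p = 0.0892). The genes Ier3, Atf3, Il18, Hmox1, Prom1 and Pax2 were named after their values were seen.

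Genes whose products bind, cleave or carry the markers held 0 calls in 4 lists of 16, 7, 17 and 8 tested genes, against 2.84% of all tested genes. They held 1 higher with DESeq2, against 5.09% of all genes with an adjusted p from that tool. Without DHT replicate 2 they held 1 higher, where 745 of all genes were higher. Without control replicate 1 they held 1 lower, where 253 of all genes were lower. Of 16 tested integrins, hyaluronan enzymes and anchors of osteopontin and CD44, the smallest p was that of Hyal2, a hyaluronidase gene, at 55.2 to 68.0 CPM in DHT and 39.5 to 47.7 CPM in control (adjusted p = 0.0767). Has3, a hyaluronan synthase gene, was at 0.237 to 0.817 CPM in DHT and 0.861 to 2.18 CPM in control (adjusted p = 0.128). Among 7 tested sheddases and receptors of the secreted markers, Slc22a17, a receptor for NGAL, was at 27.9 to 32.8 CPM in DHT and 35.8 to 42.5 CPM in control (adjusted p = 0.0876). Lrp2, or megalin, which takes up NGAL in the proximal tubule, was at 1810 to 2090 and 2290 to 2970 CPM (adjusted p = 0.209). The protease gene Adam17 had an adjusted p of 0.446.

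Among 17 tested filament partners, Eppk1, or epiplakin, which binds keratin filaments, was at 0.125 to 0.415 CPM in DHT and 0.738 to 1.09 CPM in control (adjusted p = 0.0873). Plec, or plectin, which links filaments to membranes, was at 55.4 to 65.0 and 75.7 to 93.2 CPM (adjusted p = 0.088), and the lamin gene Lmna at 58.9 to 70.3 and 45.4 to 54.9 CPM (adjusted p = 0.132). All 3 had groups that did not overlap and none passed. Over the 17, groups did not overlap for 2 higher and 2 lower in DHT, against 14.8% and 15.0% of all tested genes. Of 8 tested SOX genes other than Sox9, 0 passed, against 2.84% of all tested genes. Sox17, Sox7 and Sox13 were at edgeR adjusted p = 0.182, 0.276 and 0.354.

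Differentiated proximal tubule genes, many of which fall when tubular cells dedifferentiate, were measured beside the markers. Of 27 tested, 0 passed, against 2.84% of all tested genes, and the fold changes went both ways, 13 upward and 14 downward. The groups did not overlap for 5 of them, against 29.8% of all tested genes. Lower in DHT were Slc34a3, a phosphate transporter gene, at 24.7 to 38.3 CPM against 51.2 to 97.3 CPM (adjusted p = 0.0504 and log2 fold change -1.24 ± 0.26), Gatm, an enzyme gene of creatine synthesis, at 350 to 656 CPM against 906 to 1920 CPM (adjusted p = 0.0589), and Lrp2, given above. Higher in DHT were Slc22a6, the organic anion transporter gene, at 626 to 1180 CPM against 416 to 542 CPM (adjusted p = 0.064) and Ggt1, a brush border peptidase gene, at 836 to 1470 CPM against 551 to 771 CPM (adjusted p = 0.0767). These 5 were named after their values were seen. With DESeq2 3 of the list were higher and 3 lower, against 5.09% and 4.51% of all genes with an adjusted p from that tool. With no low-count filter 2 were higher, where 418 of all genes were. With total counts, the filter of 1 CPM or no robust step 1 was lower, where 208 to 235 of all genes were. Without DHT replicate 2, 3 were higher and 1 lower, where 745 and 479 of all genes were. The list's summed level was 31100 to 42300 CPM in DHT and 26900 to 36800 CPM in control, with the lowest value in control replicate 3.

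Endothelial genes held the single call among the cell type lists, 1 of 10 tested against 2.84% of all genes. It was Ehd3, at 57.7 to 72.5 CPM in DHT and 38.8 to 40.9 CPM in control (edgeR adjusted p = 0.0261). The call was lost with total counts, with the replicate block and on leaving out any of D1, D3, C2 and C3. In the list of adrenal and muscle genes, the steroid synthesis genes Cyp11b1, Cyp11b2 and Cyp21a1 were at 0 counts in all 6 libraries. Cyp11a1 was at 6.33 CPM in control replicate 3, at 0.311 CPM in control replicate 2 and at 0 in the other 4, and Star was at 0.475 to 2.49 CPM throughout. The muscle gene Myh1 was at 4.05 CPM in control replicate 2, at 3.96 CPM in control replicate 3 and at 0 to 0.0593 CPM elsewhere. Of the 6 fat cell genes, 4 were highest in control replicate 2, among them Adipoq (2.85 CPM), Plin1 (2.28 CPM) and Cidec (1.76 CPM). Lpl was highest in DHT replicate 1 and Fabp4 in DHT replicate 2. The part of such cells in the values of control replicates 2 and 3 was not tested.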

How the data were processed

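The authors deposited raw counts per gene symbol for 6 libraries, whole numbers with no normalization. HISAT2 2.0 and the build mm10 are named, per the submitters' processing notes; for the counting tool, its annotation and its strand setting, nothing is given in these sources. Columns were matched to samples by title, and groups come from the treatment label.

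Low-count genes were removed with filterByExpr (minimum count 10, minimum total 15), libraries were scaled by TMM, and a robust quasi-likelihood fit on the group was tested in edgeR 4.0.16 (R 4.3.3) with Benjamini-Hochberg adjustment over all genes at 0.05. SE values are those implied by the F statistic, and CPM values use TMM-scaled totals. The common biological coefficient of variation was 0.217. The fit was tested on simulated data. A second count tool, DESeq2 1.42.0, and limma-voom (limma 3.58.1) were among 19 alternative fits; those leaving out 2 libraries together and those removing a loess trend (span 0.3) on length or GC content, known for 93% of tested genes, were chosen after seeing the data. Positions, exon lengths and overlaps are from GENCODE M21 on GRCm38, the assembly of mm10, and near-identical transcripts from BLAST 2.17.0+.

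The members, lists and rules were chosen with earlier results of these data known. Named genes were the 10 markers, each list gene that passed, up to 3 genes by smallest p from the list of other injury genes and from the 4 partner lists, and the gene most similar to each marker; motifs, and the cell type marker genes named singly (such as Psca, Krt15, Krt14, Krt5, Upk1a, Csf1r, Ptprc, Ly6g, Elane, Mpo, Cyp11a1 and Star), were chosen after the values were seen. Profiles for similarity used log2(CPM + 0.5) and genes averaging 1 CPM or more. Library pairs differed by more than sampling noise (chi-square per degree of freedom of at least 22.1), so none was counted as a repeat. For 1 gene of the injury list, values are not reported here.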

Additional observations from a re-analysis of the deposited data

How the results depend on the processing

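No marker was called in either direction by median-ratio scaling, total counts, a filter of 1 CPM in 3 libraries (which dropped Havcr1), limma-voom, the length correction, leaving out the robust step or a threshold of 0.01. With DESeq2, no low-count filter, the GC correction or a threshold of 0.1, 1 marker was called higher, Krt8. The count over all genes under the GC correction is not given here, so that call stands without its background. With DHT replicate 2 and control replicate 3 both left out, 1 was higher (Krt8) and 1 lower (Spp1). Leaving out single libraries gave 0 to 1 higher. Over all genes, 212 higher and 225 lower became 132 higher with total counts, 418 and 434 with no filter, 813 and 720 with DESeq2, 107 and 125 with the length correction, 767 and 761 at a threshold of 0.1, 1 and 3 at 0.01, and 718 and 484 with both libraries left out. Leaving out single libraries gave 0 to 745 higher and 0 to 479 lower, both 0 without DHT replicate 3. With total counts the median log2 fold change of all genes was -0.101, against 0.003 in the main fit.

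Direction changed for Krt18 with limma-voom (0.02), the GC correction (0.01), both libraries left out (0.41) and single libraries left out (-0.24 to 0.39), and for Lcn2 with both libraries left out (0.43) and single ones (-1.48 to 0.94). Single libraries also turned Havcr1 (-0.05 to 1.11) and Sox9 (-0.12 to 0.05). The cause was not tested.

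With the replicate number as a replicate block, 36 genes were higher and 49 lower, 0 markers were called and Krt18 turned to 0.04. Same-numbered libraries deviated from their group means with correlations of 0.084, -0.163 and 0.053, and not each library correlated best with its own number, so the numbers were not read as pairs.

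Havcr1, Sox9, Krt19 and Lcn2 rest on few counts, and a missed threshold does not show equal expression.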
